A study of Mus musculus with 22 samples.

Results

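Microglia, the resident macrophages of the brain, were followed through 31 genes in the hippocampus (HIP) and entorhinal cortex (EC) of Ts66Yah mice. The genes were chosen by name as markers and regulators of these cells, out of 55385 genes in the count table. Earlier results of these data were known when they were chosen. Each symbol matched 1 Ensembl identifier, and none of the 31 genes lies in the triplicated segment. All 31 had counts in all 22 libraries, from 65 to 5232 reads per gene and library, and all passed the filter on low counts in every comparison.

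Ts66Yah mice model Down syndrome. Their freely segregating minichromosome holds an extra copy of distal mouse chromosome 16 (Mmu16) from Mir155 to the telomere, and was obtained from the Ts65Dn minichromosome by removing the centromeric Mmu17 segment with CRISPR/Cas9. The line goes back to a single founder. The animals were males aged 5 to 6 months on a mixed B6C3B background, 5 wild type (wt) and 6 Ts66Yah littermates carrying the minichromosome, with no treatment named in the labels. Every mouse gave a HIP library and an EC library, so that there were 5 libraries in wt HIP, 6 in Ts66Yah HIP, 5 in wt EC and 6 in Ts66Yah EC.

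Microglia in the healthy adult brain express a homeostatic set of surface receptors, among them the purinergic receptor P2RY12 and the fractalkine receptor CX3CR1. They depend on the receptor CSF1R for survival and on transcription factors such as PU.1, encoded by Spi1. TREM2 is a surface receptor for lipids and lipoproteins that signals through the ITAM adaptor TYROBP, also called DAP12, and is known for its part in the response of microglia to amyloid and cell debris. C1q, built from the products of C1qa, C1qb and C1qc, starts the classical complement cascade and is made in the brain largely by microglia.

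Total counts ranged from 25.9 to 50.1 M per library with a median of 34.7 M. The labelled regions were checked against marker genes. Summed over 6 hippocampal markers, HIP libraries held 583 to 725 CPM (read counts scaled to a common library total, with TMM factors throughout) against 55.4 to 96.7 CPM in EC. Summed over 6 neocortical markers, EC libraries held 1380 to 1919 CPM against 306 to 455 CPM in HIP. Together the 31 microglial genes took 0.0622% to 0.104% of the counts of a library. A choroid plexus signature of 6 genes varied between HIP libraries, from 113 to 3341 CPM in wt and from 789 to 2886 CPM in Ts66Yah, and stayed between 10.6 and 44.4 CPM in EC.

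Promoter sequences are shown for 4 members: Trem2 itself, the Fc receptor-like gene Fcrls and the receptor P2ry12, both homeostatic, and the complement gene C1qb. Those of the survival receptor, transcription factor, myeloid and lysosomal genes are not shown. Each run gives the 250 bases before the RefSeq start site (build GRCm38.p6), read in the direction of the gene, with capitals marking the core PU.1 motif GAGGAA or its reverse complement TTCCTC. The Trem2 window is chr17:48346151-48346400 on the plus strand, that of Fcrls chr3:87263525-87263774, that of P2ry12 chr3:59262986-59263235 and that of C1qb chr4:136886201-136886450, these 3 on the minus strand.
Trem2: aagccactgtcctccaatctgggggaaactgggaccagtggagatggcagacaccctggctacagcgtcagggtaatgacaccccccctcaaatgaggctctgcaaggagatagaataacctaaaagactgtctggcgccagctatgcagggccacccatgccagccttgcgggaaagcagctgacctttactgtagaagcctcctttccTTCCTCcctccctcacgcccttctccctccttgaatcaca
Fcrls: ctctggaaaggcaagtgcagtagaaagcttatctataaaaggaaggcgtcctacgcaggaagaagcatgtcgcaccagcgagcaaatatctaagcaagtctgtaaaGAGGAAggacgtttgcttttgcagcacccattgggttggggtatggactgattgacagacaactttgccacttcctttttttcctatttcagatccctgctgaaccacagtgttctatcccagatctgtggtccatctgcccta
P2ry12: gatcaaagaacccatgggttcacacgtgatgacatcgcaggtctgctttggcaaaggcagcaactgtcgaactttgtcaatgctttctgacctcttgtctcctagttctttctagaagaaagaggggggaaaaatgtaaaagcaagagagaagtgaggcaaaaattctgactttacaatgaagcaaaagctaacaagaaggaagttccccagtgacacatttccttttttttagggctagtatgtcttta
C1qb: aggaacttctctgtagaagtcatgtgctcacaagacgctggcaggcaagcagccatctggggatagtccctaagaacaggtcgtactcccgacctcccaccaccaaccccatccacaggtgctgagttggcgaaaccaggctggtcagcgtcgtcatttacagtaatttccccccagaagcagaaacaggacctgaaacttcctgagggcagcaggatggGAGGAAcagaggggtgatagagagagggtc
A match began 40 bases before the start in Trem2, 30 bases before it in C1qb and 144 bases before it in Fcrls, whereas the P2ry12 window held none. Of the 24 members with a window of 300 bases (250 before and 50 after the start) in the RefSeq table, 16 held the motif on either strand, or 66.7%, compared with 31.2% of all 27025 genes with such a window. A match of 6 letters is a description of the sequence and does not show binding.

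The first question was whether microglial genes differed between Ts66Yah and wt mice. Trem2 was lower in Ts66Yah in the EC, and was the only member past the threshold. In wt EC it stood at 19.9, 13.7, 17.6, 13.7 and 22.4 CPM in replicates 1 to 5, and in Ts66Yah EC at 10.6, 9.06, 11.4, 11.7, 11.1 and 11.2 CPM in replicates 1 to 6. All 6 Ts66Yah libraries were below the lowest wt library, and the wt libraries were the more spread. The fall was 0.62-fold, a log2 fold change of -0.69 (SE 0.13, 95% interval -0.97 to -0.41, edgeR adjusted p = 0.0444). Of 17658 genes tested in EC, 0.283% were called at an adjusted p under 0.05, and 0.0113% were called lower in Ts66Yah.

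In the HIP, Trem2 was at 16.1, 11.9, 14.8, 11.6 and 17.2 CPM in wt and at 11.0, 8.24, 10.6, 9.70, 10.0 and 10.9 CPM in Ts66Yah. The groups again did not overlap, with wt replicates 2 and 4 the lowest of the wt mice in both regions. The log2 fold change of -0.50 (SE 0.11, 95% interval -0.74 to -0.26) had an unadjusted p of 0.000538 and missed the threshold after adjustment (edgeR adjusted p = 0.0679). No member was called in HIP, where 0.591% of 18452 genes were called and 0.152% were called lower.

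With the counts of both regions summed per animal, Trem2 fell by 0.60 on the log2 scale (SE 0.12, edgeR adjusted p = 0.0328) and no other member passed. In that comparison 0.573% of 20233 genes were called, and 0.119% were called lower. Leaving out 1 library at a time, the EC value stayed between -0.77 and -0.59 but was past the threshold in 2 of 11 fits, those without wt replicate 2 or 4. It missed the threshold without wt replicate 1, 3 or 5 and without any 1 of the 6 Ts66Yah libraries (edgeR adjusted p up to 0.184), and the summed value lost its call without the same mice.

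Trem2 (ENSMUSG00000023992, GRCm38 chromosome 17, 48346401 to 48354147, plus strand) is protein-coding and has no annotated gene overlapping it on either strand. Its chromosome has the normal copy number at this position in Ts66Yah. Per kilobase of annotated exon, Trem2 ranked 25 of the 31 members in wt HIP and wt EC, and 26 in both Ts66Yah groups, where its level was 2.04 CPM per kb in HIP and 2.19 CPM per kb in EC. Cathepsin S (Ctss) ranked first, at 74.4 CPM per kb in Ts66Yah EC, followed by C1qa at 52.5 CPM per kb. The exon length counted for Trem2 was 4946 bases over all its annotated transcripts, and the rank depends on it. Tyrobp, at 14.1 CPM in wt HIP against 14.3 CPM for Trem2, ranked 4 there with 667 bases.

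**Figure D1:**
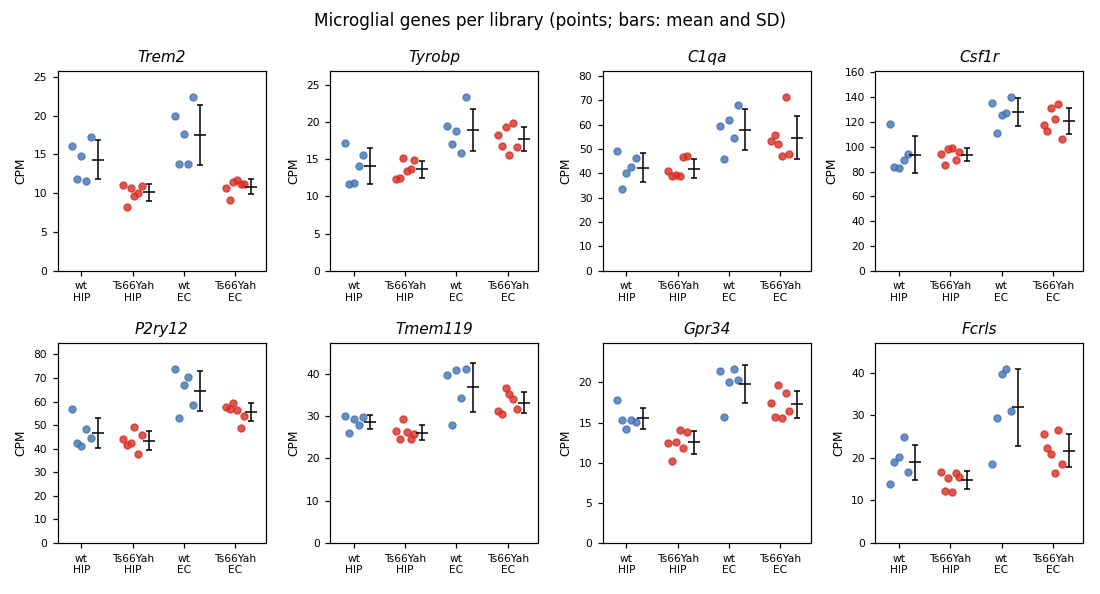
CPM of 8 members in every library, with 1 point per library, the mean and SD beside them, and axes starting at 0. Trem2 is lower in all Ts66Yah libraries than in any wt library of the same region, while the points of Tyrobp, C1qa and Csf1r overlap between genotypes.

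The other ITAM signalling genes did not pass the test. Tyrobp, the adaptor that carries the TREM2 signal, was at 19.4, 17.0, 18.8, 15.9 and 23.4 CPM in wt EC and between 15.6 and 19.8 CPM (median 17.5) in Ts66Yah EC. Its log2 fold change was -0.10 in EC (95% interval -0.32 to 0.12) and -0.04 in HIP (95% interval -0.27 to 0.18), with both groups overlapping. Fcer1g, the ITAM gamma chain shared by Fc receptors, had a higher value in Ts66Yah HIP, with 4.17 to 7.23 CPM (median 4.76) against 4.48, 2.99, 3.92, 4.31 and 3.58 CPM in wt. This difference of 0.42 on the log2 scale (SE 0.16, unadjusted p = 0.0181, edgeR adjusted p = 0.304) did not pass, and the groups overlapped. Fcgr3, a low-affinity IgG receptor, had log2 fold changes of 0.12 in HIP and 0.09 in EC. Fcer1g and Fcgr3 therefore had the opposite sign to Trem2 in both regions, and none of these 3 genes was called.

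Relative to other members, Trem2 was also lower in Ts66Yah. The log2 ratio of Trem2 to the mean of the other 30 members was -0.19 ± 0.22 in wt HIP (SD, 5 mice) against -0.62 ± 0.08 in Ts66Yah HIP (SD, 6 mice). In EC it was -0.27 ± 0.24 against -0.80 ± 0.13. The ranges overlapped narrowly, with the lowest wt HIP ratio at -0.51 and the highest Ts66Yah HIP ratio at -0.49. The ratio of Trem2 to Csf1r did not overlap between genotypes in either region, running in HIP from -2.94 to -2.44 in wt and from -3.37 to -3.08 in Ts66Yah, and in EC from -3.21 to -2.64 and from -3.63 to -3.25. Against P2ry12 the ratios overlapped in both regions. Against Tyrobp they overlapped in HIP, with wt down to -0.28 and Ts66Yah up to -0.17. In EC they did not, with wt down to -0.31 and Ts66Yah up to -0.41. Against C1qa they missed overlap narrowly, with wt down to -1.875 and Ts66Yah up to -1.885 in HIP. The same limits in EC were -1.98 and -2.01. These ratios are descriptions and were not tested.

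Complement genes showed no called genotype difference. C1qa stood at 59.5, 45.9, 61.9, 54.4 and 68.2 CPM in wt EC and at 47.3 to 71.5 CPM (median 52.7) in Ts66Yah EC, and the log2 fold change was -0.09 (95% interval -0.34 to 0.16). In HIP it averaged 42.4 ± 5.92 CPM over the 5 wt libraries and 42.0 ± 3.90 CPM over the 6 Ts66Yah libraries (SD). C1qb was at 37.1 ± 8.40 and 37.0 ± 8.91 CPM in HIP and at 50.3 ± 13.4 and 45.8 ± 9.52 CPM in EC, in wt and Ts66Yah respectively. C1qc, the third chain, reached 62.2 CPM in wt EC replicate 5 and went down to 16.3 CPM in Ts66Yah HIP replicate 2. Its log2 fold changes of -0.21 in HIP and -0.12 in EC had 95% intervals from -0.62 to 0.20 and from -0.59 to 0.36, the widest of the complement genes. Itgam, the alpha chain of complement receptor CR3, had -0.07 and -0.20. All 4 values were negative in both regions, but those of C1qa (-0.01) and C1qb in HIP lay close to 0 and turned positive with limma voom and, for C1qb, with RLE scaling.

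The 11 homeostatic surface and secreted genes had negative log2 fold changes in both regions, 11 of 11 in each, with a median of -0.11 in HIP and -0.16 in EC, and none was called. Without wt HIP replicate 1 this was 8 of 11 in HIP, with a median of -0.04. Limma voom left 10 of 11 in HIP, and the RLE scaling did not alter the counts. In HIP, 49.99% of all genes tested were negative with a median near 0, and in EC 51.5% with a median of -0.0045. The 11 genes share cells, libraries and animals, so they are not 11 independent observations. In these bulk libraries, fewer microglia and less RNA of these genes per cell cannot be told apart.

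Several of these genes had an unadjusted p under 0.05. Gpr34, a lysophosphatidylserine receptor, was at 17.8, 15.3, 14.2, 15.3 and 15.1 CPM in wt HIP and at 10.3 to 14.1 CPM (median 12.6) in Ts66Yah HIP. The groups did not overlap, although only narrowly, and the log2 fold change was -0.31 (SE 0.09, unadjusted p = 0.00315, edgeR adjusted p = 0.164). DESeq2 called Gpr34 together with Trem2 in HIP, where it called 2.05% of the 17374 genes to which it gave an adjusted p, and 1.02% lower in Ts66Yah. It also called both genes with the regions summed, where it called 1.84% of 19054 genes, and 0.85% lower in Ts66Yah. In EC the Gpr34 groups overlapped and the value was -0.20 (edgeR adjusted p = 0.809). Gpr34 lies within Cask on the opposite strand, and whether the counting used strand is unknown.

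Fcrls had the lowest log2 fold change after Trem2 in both regions. It was at 18.6, 29.3, 39.6, 40.9 and 30.9 CPM in wt EC and at 16.4 to 26.6 CPM (median 21.7) in Ts66Yah EC, a log2 fold change of -0.55 (SE 0.18, unadjusted p = 0.00849, edgeR adjusted p = 0.524). In HIP it was -0.36 (SE 0.13, edgeR adjusted p = 0.302), from 14.0, 19.1, 20.1, 25.0 and 16.6 CPM in wt to 12.0 to 16.8 CPM in Ts66Yah. Wt replicate 1 was the lowest wt mouse for Fcrls in both regions and lay within the Ts66Yah range. Olfml3, a secreted olfactomedin-like protein, showed the same layout: wt replicate 1 was lowest in both regions, at 19.0 CPM in HIP and 20.1 CPM in EC, and the EC value was -0.36 (unadjusted p = 0.0153, edgeR adjusted p = 0.646).

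P2ry12, the ADP receptor that directs microglial processes, was at 73.7, 53.0, 66.9, 70.4 and 58.4 CPM in wt EC and at 48.8 to 59.4 CPM (median 56.7) in Ts66Yah EC. The log2 fold change was -0.22 (95% interval -0.40 to -0.03, unadjusted p = 0.0261, edgeR adjusted p = 0.722), and -0.10 in HIP. Its neighbour P2ry13, another ADP receptor, had -0.23 in EC (unadjusted p = 0.0409, edgeR adjusted p = 0.772) and -0.06 in HIP. Both lie within Med12l on the opposite strand.

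Tmem119, a membrane protein used to mark microglia, had -0.13 in HIP (SE 0.06, unadjusted p = 0.0448, edgeR adjusted p = 0.406), from 30.1, 26.1, 29.4, 28.0 and 29.7 CPM in wt to 24.5 to 29.4 CPM (median 26.0) in Ts66Yah, and -0.15 in EC. Cx3cr1 averaged 59.0 ± 7.62 CPM (SD) over the 5 wt libraries of the HIP against 53.4 ± 3.92 CPM over the 6 Ts66Yah libraries, and 74.7 ± 6.22 against 67.8 ± 7.62 CPM in EC. Its log2 fold change was -0.14 in both regions. For Cx3cr1, several annotated genes overlap the locus on both strands. The remaining homeostatic genes, Siglech, Selplg, Hpgds and Slco2b1, ranged from -0.11 to -0.01 in HIP and from -0.16 to -0.06 in EC.

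**Figure D2:**
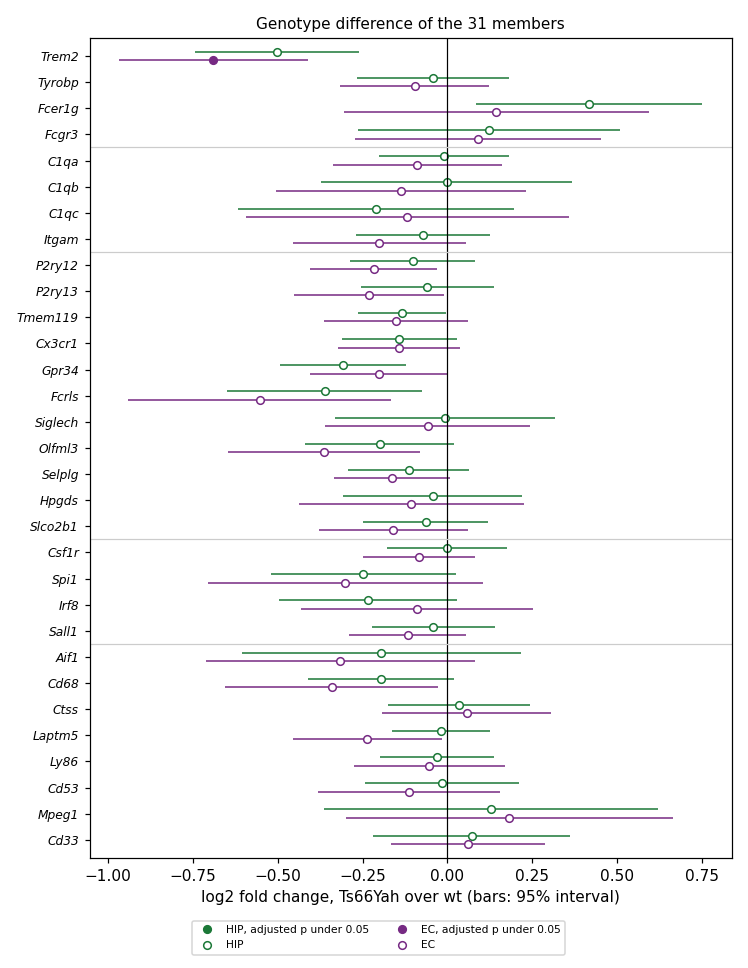
Log2 fold change of Ts66Yah over wt for all 31 members in HIP and EC, with 95% intervals, and grey lines between the 5 roles. Trem2 in EC is the only filled point, and all 11 homeostatic genes from P2ry12 to Slco2b1 are left of 0 in both regions.

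Csf1r, the receptor for CSF1 and IL-34 on which microglial survival depends, did not pass the test in either region. It was at 119, 83.5, 82.98, 89.6 and 93.9 CPM in wt HIP and at 85.6 to 98.9 CPM (median 94.8) in Ts66Yah HIP, with a log2 fold change that rounds to 0.00 (95% interval -0.18 to 0.18) and whose sign depended on the processing. In EC it was 128 ± 11.3 CPM (SD, n = 5) and 121 ± 10.8 CPM (SD, n = 6), a value of -0.08 (95% interval -0.25 to 0.08). The intervals thus reach to 0.25 on the log2 scale.

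Of the transcription factors, Spi1 had -0.25 in HIP and -0.30 in EC. It was at 2.79, 2.166, 2.86, 2.87 and 3.47 CPM in wt HIP and at 2.15 to 2.67 CPM in Ts66Yah HIP, with overlapping groups and edgeR adjusted p values of 0.471 and 0.894. Irf8, an interferon regulatory factor needed for microglial development, had -0.23 and -0.09. Sall1, a zinc-finger factor of microglial identity, averaged 24.5 ± 3.64 CPM in wt and 23.8 ± 1.38 CPM in Ts66Yah for the HIP, and 22.1 ± 2.56 and 20.4 ± 0.804 CPM for the EC (SD over 5 wt and 6 Ts66Yah libraries). None of the 3 was called.

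Myeloid and lysosomal genes were mixed in sign, with 5 of 8 negative in each region. Cd68, a lysosomal membrane protein of phagocytes, was at 10.2, 7.96, 8.63, 9.93 and 12.0 CPM in wt EC and at 5.67 to 10.1 CPM (median 7.56) in Ts66Yah EC, a log2 fold change of -0.34 (unadjusted p = 0.0358, edgeR adjusted p = 0.753). In HIP Cd68 had -0.20. The lysosomal protein gene Laptm5 had -0.24 in EC (unadjusted p = 0.0370, edgeR adjusted p = 0.759) and -0.02 in HIP. Ctss had 0.03 and 0.06, Mpeg1, the pore-forming perforin-2, 0.13 and 0.18, and Cd33, a sialic acid-binding receptor, 0.07 and 0.06. The remaining 3, Aif1 (the microglial protein IBA1), Ly86 and Cd53, were negative in both regions, the largest being Aif1 at -0.32 in EC (edgeR adjusted p = 0.875).

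Counted over the 31 members, 26 were negative in HIP, with a median of -0.06, and 26 in EC, with a median of -0.14. The HIP count rested in part on single mice and on the method. Without wt HIP replicate 1, 16 of 31 were negative and the median was -0.01. Leaving out any other HIP library gave 20 to 28. Limma voom gave 21, and 2 ranges of mouse numbers as blocks, a fit that also lacks wt replicate 1, gave 18. In EC the count stayed between 23 and 28 whichever library was left out. An unadjusted p under 0.05 with lower values was found for 4 members in HIP, where 6.42% of all genes met it, and for 7 in EC, where 3.45% did. In the higher direction it was found for 1 member in HIP and 0 in EC, against 5.44% and 2.79% of all genes. Groups that did not overlap, with Ts66Yah lower, were found for Trem2 and Gpr34 in HIP (0.813% of all genes) and for Trem2 in EC (0.408% of all genes). In the higher direction there were 0 members in both regions, against 1.06% and 0.549%. Both regions came from the same mice, so the counts of HIP and EC are not independent of each other.

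Averaged per library, the members other than Trem2 shifted little against the spread between mice. The mean log2 difference from the wt mean over these 30 genes was -0.06 ± 0.10 (SD, n = 6) in Ts66Yah HIP and -0.13 ± 0.11 (SD, n = 6) in Ts66Yah EC, where the wt libraries themselves spread from -0.16 to 0.17 in HIP and from -0.25 to 0.14 in EC. For the homeostatic genes the Ts66Yah libraries ran from -0.29 to -0.06 in HIP and from -0.36 to -0.08 in EC, all below the wt mean and overlapping wt libraries, which went down to -0.11 and -0.20. The complement genes ran from -0.46 to 0.16 in Ts66Yah HIP, on both sides of the wt mean. Trem2 alone ran from -0.77 to -0.36 in Ts66Yah HIP and from -0.92 to -0.55 in Ts66Yah EC.

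**Figure D3:**
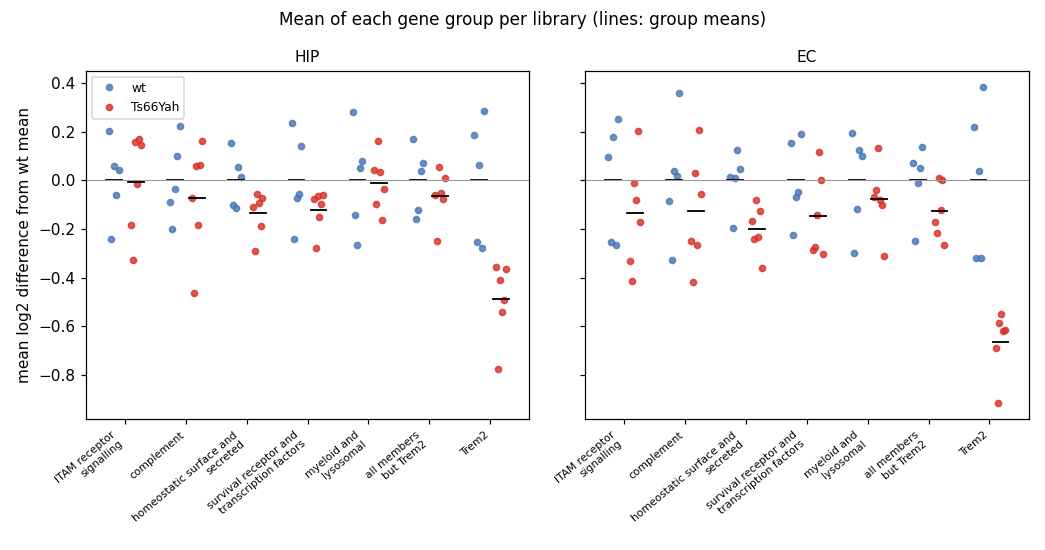
Mean log2 difference from the wt mean of the same region, per library, for the 5 roles, for all members but Trem2, and for Trem2, with lines at group means. The Trem2 points of the Ts66Yah mice lie below all wt points, whereas the points of the other sets overlap between genotypes.

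Other genes of the pathways were counted from lists. Of 13 genes of TREM2 signalling and shedding, 12 were tested and 0 were called in HIP or EC. The smallest p in HIP was that of Card9, a signalling adaptor (-0.24, edgeR adjusted p = 0.486), and in EC that of Blnk, an adaptor bound by SYK (-0.42, SE 0.12, unadjusted p = 0.00401, edgeR adjusted p = 0.405). Adam10 and Adam17, whose products shed the TREM2 ectodomain, were among the genes not called.

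Of 18 genes of the disease-associated microglial state, 16 were tested in HIP and 15 in EC, and none was called. Lpl, lipoprotein lipase, had -0.36 in HIP (unadjusted p = 0.00716, edgeR adjusted p = 0.228) and -0.41 in EC. Cd63, a lysosomal tetraspanin, had -0.17 and -0.23 in the same order (edgeR adjusted p = 0.397 and 0.661). Apoe, also made by astrocytes and a ligand of TREM2, had -0.24 in HIP (edgeR adjusted p = 0.338), and Gpnmb had 0.74 in HIP (edgeR adjusted p = 0.350). Median values of this list were 0.01 in HIP and -0.04 in EC.

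The remaining complement cascade, 13 genes, held 0 called. In EC 12 of 13 were negative with a median of -0.24, in HIP 6 of 13 with a median of 0.00. The smallest p in HIP was that of Serping1, the C1 inhibitor (0.31, edgeR adjusted p = 0.362). Of 9 ligands of microglial receptors, 0 were called. Apoe had the smallest p in HIP, and clusterin (Clu) in EC, at -0.20 (edgeR adjusted p = 0.717). The transforming growth factor gene Tgfb1 had -0.43 in HIP (unadjusted p = 0.0471, edgeR adjusted p = 0.413).

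Of the markers tested for other cells that share genes with microglia, none was called between genotypes either. For 8 markers of border macrophages, which also express Csf1r, Tyrobp and C1q, the summed level was 15.98 to 20.4 CPM in wt HIP and 19.7 to 29.3 CPM in Ts66Yah HIP, and 24.8 to 40.6 CPM and 20.7 to 43.0 CPM in EC. Of these genes 6 of 7 tested were positive in HIP and 8 of 8 negative in EC, and Stab1 had 0.31 in HIP with groups that did not overlap (unadjusted p = 0.000962, edgeR adjusted p = 0.0977). The summed level of 10 blood leukocyte markers ran from 0.779 to 1.65 CPM in wt HIP, from 0.980 to 7.54 CPM in Ts66Yah HIP, from 2.06 to 3.67 CPM in wt EC and from 1.69 to 5.02 CPM in Ts66Yah EC. Only 2 of the 10 passed the filter on low counts in HIP, with log2 fold changes of 0.42 and 3.49. In EC 3 passed, with values from -1.11 to 0.0033. The remaining leukocyte markers were not tested and could not be called, although none of the 10 was at 0 in every library of a group. Whether these cells had a part in the genotype values was not tested.

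The second question was whether the genes differed between the regions. In wt, 17 of 31 members were higher in EC than in HIP and 0 were lower, while 23.4% of 17935 genes were called higher and 24.3% lower. In Ts66Yah, 17 members were higher in EC and 1 lower, while 26.4% of 18043 genes were called higher and 27.5% lower. The members' median was 0.36 in wt and 0.33 in Ts66Yah on the log2 scale, or 1.29-fold and 1.25-fold, and the medians over all genes were 0.01 in both. With the animal as a block, which uses that both libraries came from the same mouse, 25 members were called higher in wt EC and 0 lower, where 26.3% of all genes were called higher and 27% lower. In Ts66Yah the block gave 22 members higher and 1 lower, against 28.9% and 30.1% of all genes. The values by gene below come from the fit without this block, so their intervals and p values include the spread between mice.

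Among the homeostatic genes, 9 of 11 were called higher in wt EC and 8 of 11 in Ts66Yah EC. Fcrls had the largest difference, 0.75 in wt (SE 0.20, edgeR adjusted p = 0.00698) and 0.56 in Ts66Yah (SE 0.12, edgeR adjusted p = 0.00148), going in Ts66Yah from 12.0 to 16.8 CPM in HIP to 16.4 to 26.6 CPM in EC. P2ry12 rose by 0.47 in wt and by 0.35 in Ts66Yah, and P2ry13 by 0.50 and 0.33. Gpr34 was at 10.3 to 14.1 CPM in Ts66Yah HIP and at 15.6 to 19.6 CPM in Ts66Yah EC, without overlap (0.46, edgeR adjusted p = 0.000383). Tmem119 and Cx3cr1 were higher in EC in both genotypes, with differences between 0.34 and 0.36. Hpgds, prostaglandin D synthase, was called in neither, with 0.01 and -0.06.

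Csf1r was higher in EC by 0.45 in wt (edgeR adjusted p = 0.00257) and by 0.36 in Ts66Yah (edgeR adjusted p = 0.000144), from 85.6 to 98.9 CPM in Ts66Yah HIP to 107 to 135 CPM in Ts66Yah EC. Sall1 went the other way. It was 22.3 to 25.2 CPM in Ts66Yah HIP and 19.4 to 21.4 CPM in Ts66Yah EC, a difference of -0.23 (SE 0.05, edgeR adjusted p = 0.00198), and -0.15 in wt, where it did not pass (edgeR adjusted p = 0.292). Spi1 and Irf8 were not called in either genotype, although Spi1 was higher in EC than in HIP within every wt mouse.

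C1qa was higher in EC in both genotypes, by 0.46 in wt (edgeR adjusted p = 0.00577) and 0.37 in Ts66Yah (edgeR adjusted p = 0.00372). C1qb, C1qc and Itgam had positive values in both but were not called in this unpaired fit. Within every mouse of both genotypes, C1qb was higher in EC than in HIP. C1qc was so within every Ts66Yah mouse and Itgam within every wt mouse, but neither in all mice of the other genotype. Tyrobp was called in both, with 0.43 and 0.37, whereas Trem2 was called in neither, with 0.29 in wt (95% interval -0.05 to 0.63, edgeR adjusted p = 0.143) and 0.10 in Ts66Yah (95% interval -0.08 to 0.28, edgeR adjusted p = 0.348). These fits left out the pairing of libraries within a mouse, so the spread of Trem2 between mice enters its intervals. Trem2 was higher in EC than in HIP within every wt mouse, and within every Ts66Yah mouse but replicate 1. Of the other ITAM genes, Fcer1g was higher in wt EC by 0.52 (edgeR adjusted p = 0.0255) and Fcgr3 by 0.47 (edgeR adjusted p = 0.0182), and both were not called in Ts66Yah. Within every Ts66Yah mouse, both were nevertheless higher in EC than in HIP.

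Cd68 was at 5.59 to 7.14 CPM in wt HIP and at 7.96 to 12.0 CPM in wt EC, groups that did not overlap, a difference of 0.63 (SE 0.13, edgeR adjusted p = 0.00113), and 0.48 in Ts66Yah (edgeR adjusted p = 0.00423). Cd53, a leukocyte tetraspanin, had 0.51 in wt (edgeR adjusted p = 0.00397) and 0.41 in Ts66Yah (edgeR adjusted p = 0.00562). Mpeg1 and Aif1 were called in Ts66Yah, with 0.51 and 0.48, and had similar values with wider intervals in wt. Mpeg1 ran from 13.5 to 43.5 CPM between the wt HIP libraries, a spread between mice that the unpaired fit includes. Within every wt mouse, both Mpeg1 and Aif1 were higher in EC than in HIP. Cd33 was called in neither genotype.

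**Figure D4:**
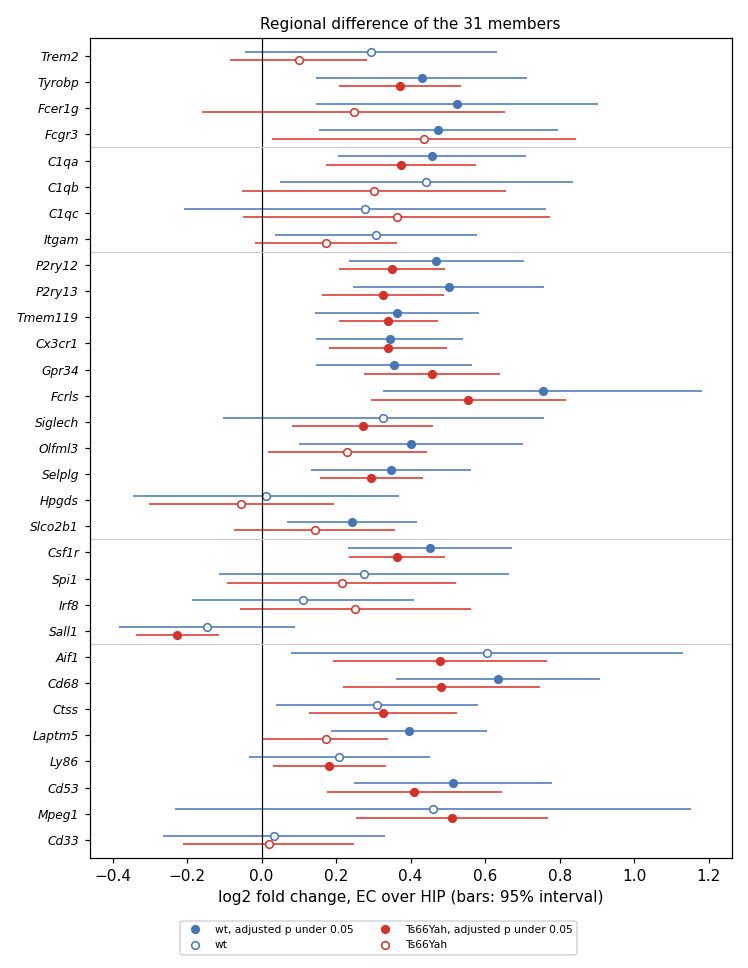
Log2 fold change of EC over HIP for all 31 members in wt and Ts66Yah, with 95% intervals from the fit without the animal as a block. Most points lie right of 0 in both genotypes, Hpgds and Cd33 lie near 0, and Sall1 lies left of 0.

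Other cell types also differed between the dissected regions, so that the regional CPM values are shares of different mixtures. The summed level of 7 oligodendrocyte markers was 7376 to 10758 CPM in wt HIP and 1436 to 3559 CPM in wt EC. Erythroid markers summed to 123 to 210 CPM in wt HIP and 249 to 673 CPM in wt EC. All 8 border macrophage markers were called higher in wt EC, with a median of 1.37, and 3 of 8 in Ts66Yah EC, with a median of 0.68. Their part in the members' regional differences was not tested. The ligands also differed. Il34, a CSF1R ligand made by neurons, was higher in EC by 0.85 in wt and 0.77 in Ts66Yah, and Csf1 was lower, at -0.66 and -0.82 on the log2 scale, all with edgeR adjusted p under the threshold.

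The genotype effect was not shown to differ between regions. For the interaction of genotype and region, 0 of the 31 members and 0% of 19074 genes were called by edgeR, with 388 genes at an unadjusted p under 0.05, and DESeq2 called 0. The interaction value of Trem2 was -0.19 (SE 0.18, 95% interval -0.56 to 0.18). This fit did not pair the libraries of a mouse, so its SE includes the spread between mice. In the same unpaired fit Laptm5 had the smallest p among the members, with -0.22 (unadjusted p = 0.102). With the animal as a block, 0 members were called as well. The members' values were negative for 25 of 31, with a median of -0.07.

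The third question was whether Trem2 followed other microglial genes, and itself, from mouse to mouse. Values were centred on the mean of each genotype, over 11 mice, and 9 relations were computed. Trem2 in HIP and Trem2 in EC were related, with Pearson's r of 0.92 (permutation p = 0.00417, adjusted 0.0375) and Spearman's rho of 0.73 (permutation p = 0.0380, adjusted 0.200), and r was 0.86 without the 2 mice farthest from the median. The relation rested mainly on the wt mice, of which replicates 1, 3 and 5 were high and 2 and 4 low in both regions. Within the 6 Ts66Yah mice r was 0.72 (exact permutation p = 0.154) and rho 0.03.

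With Tyrobp, Trem2 had r of 0.73 in EC (permutation p = 0.0318, adjusted 0.116; rho 0.57, permutation p = 0.118) and 0.55 in HIP (permutation p = 0.171, adjusted 0.222). With Csf1r it had r of 0.63 in EC (permutation p = 0.0388, adjusted 0.116) and 0.55 in HIP (permutation p = 0.160, adjusted 0.222). With C1qa r was 0.47 in EC and 0.61 in HIP, and with P2ry12 0.08 and 0.21, with adjusted permutation p values of 0.205 to 0.849. None of these 8 relations passed after adjustment.

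**Figure D5:**
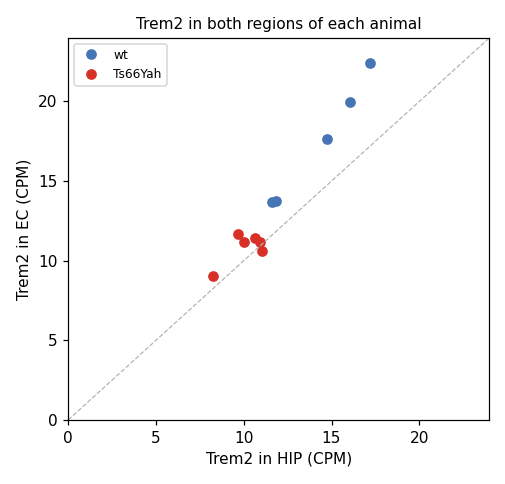
Trem2 in HIP against Trem2 in EC, in CPM, with 1 point per mouse and a dashed line of equality. The 6 Ts66Yah mice lie at 8.24 to 11.0 CPM in HIP and 9.06 to 11.7 CPM in EC, and the wt mice fall into 2 lower and 3 higher points.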

How the data were processed

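Bulk RNA-Seq was available for 22 libraries of 11 mice. According to the study's methods, reads were single-end, 50 bases long, from an Illumina HiSeq, aligned to GRCm38 by Hisat2 and counted per Ensembl gene by HTSeq-count. Tool versions, multi-mapping and strand settings are not given in the sources used here. The labels describe poly(A) selection, whereas the methods also name a ribosomal depletion kit. The submitters' processing notes list bcl2fastq 2.17.1.14 and DESeq2. The authors deposited raw counts per gene, whole reads without normalization, and 0 columns were unmapped. Their tables of fold changes and p-values were not used.

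Symbols, exon lengths and overlaps came from GENCODE M21 (55144 of 55385 identifiers matched), on the same build but an earlier annotation. Counts were tested with edgeR 4.0.16 (R 4.3.3), its quasi-likelihood test, TMM scaling and filterByExpr, within a region for genotype and within a genotype for region, over all genes, with Benjamini-Hochberg adjustment and a threshold of 0.05. CPM values were scaled by TMM over all 22 libraries, with a prior count of 2 for log2 CPM. The scripts were tested on simulated data. Alternatives were DESeq2 1.42.0, limma voom 3.58.1, RLE factors, other filters, one fit of all libraries, blocks, and leaving out libraries. Correlations used 100000 permutations within genotype, two-sided. Promoter windows came from RefSeq.

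Replicate numbers paired HIP and EC of the same animal, whose deviations correlated at 0.207 to 0.454 in wt and 0.263 to 0.410 in Ts66Yah. No 2 libraries of a group agreed within sampling noise. Each replicate was a separate mouse, whose litter the labels do not give. All 31 members were accounted for. Values by group were given for Trem2, Tyrobp, the C1q genes, Csf1r, Cx3cr1, P2ry12, Tmem119, Sall1, Spi1, Irf8, Cd68 and each member past a genotype threshold. Members with an unadjusted p under 0.05 were named, together with the 6 largest called regional differences and the gene with the smallest p of each further list, of which a result for the complement list in EC is not reported here. The members and lists were chosen with earlier results of these data known.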

Additional observations from a re-analysis of the deposited data

Results flagged for a closer look

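In 3 of 124 groups of a member's libraries, 1 library stood far from the rest by Dixon's criterion at the 95% level, which chance alone flags in about 5% of groups. P2ry13 was at 14.1 CPM in Ts66Yah EC replicate 6, below the other 5 libraries at 17.5 to 19.1 CPM. Gpr34 was at 15.7 CPM in wt EC replicate 2, below the other 4 at 19.99 to 21.6 CPM. Cd33 was at 10.5 CPM in wt EC replicate 1, above the other 4 at 8.37 to 8.86 CPM. Trem2 was not among them in any group.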

How the results depend on the processing

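For the genotype calls, DESeq2 called 2 members in HIP (Gpr34 and Trem2, with Trem2 at -0.50), where it called 2.05% of all genes, and 2 with both regions summed, where it called 1.84%. Without a filter on low counts 1 was called in HIP (Trem2, -0.50), with 0.358% of all genes. In EC 0 members were called with limma voom (Trem2 at -0.66), with the replicate number as a block (-0.68) and with 2 ranges of mouse numbers as blocks (-0.64, without wt replicate 1, which is in neither range), where 0.283%, 0.221% and 0.213% of all genes were called. These numbers did not pair mice of different genotypes, since deviations of same-numbered libraries correlated above 0.1 in 0 of 5 pairs in HIP and 2 of 5 in EC. Leaving out 1 library or mouse at a time gave 0 to 1 called members in HIP, in EC and in the sum, and 0 for the interaction. It gave 12 to 17 for wt regions and 16 to 21 for Ts66Yah regions. With no library left out, 0.591% of all genes were called in HIP, 0.283% in EC and 0.573% in the sum. Between regions 23.4% were called higher and 24.3% lower in wt EC, and 26.4% and 27.5% in Ts66Yah EC. Shares in the smaller fits are not given here. With 1 library left out, Trem2 ranged from -0.57 to -0.43 in HIP and from -0.77 to -0.59 in EC, and its sign never changed.

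Signs changed for members near 0, none of them called. In HIP, the fit by number range gave 0.032 for Tyrobp, 0.052 for C1qa, 0.089 for Csf1r, 0.043 for Sall1 and 0.049 for Laptm5. Limma voom gave 0.0044 for C1qa, 0.0034 for C1qb and 0.015 for Csf1r. C1qb was 0.00016 with RLE factors, 0.00026 without a filter and 0.0033 at a minimum of 1 CPM in 5 libraries. Csf1r was 0.00069, 0.00095 and 0.0038 under the same 3 settings, 0.00035 with DESeq2 and 0.0030 with the replicate block. Leaving out 1 library gave these HIP ranges: -0.10 to 0.042 for Tyrobp, -0.082 to 0.049 for C1qa, -0.086 to 0.099 for C1qb, -0.12 to 0.0087 for P2ry13, -0.041 to 0.10 for Csf1r, -0.086 to 0.051 for Sall1 and -0.055 to 0.043 for Laptm5. In EC they were -0.015 to 0.24 for Fcer1g, -0.22 to 0.022 for C1qb and -0.23 to 0.11 for C1qc. The cause was not tested. At 25.9 to 50.1 M reads per library, the lowest count of any member was 65 reads.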

Other observations

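Other members also followed the mouse across regions. For each of the 31 genes the correlation of HIP and EC over 11 mice, centred on genotype means, was computed after seeing the data. The median r was 0.63, against 0.29 over 19070 genes, and 25 members were above that value. The highest values were those of Mpeg1 (0.95), Aif1 (0.92), Trem2 (0.92), C1qb (0.89) and C1qc (0.85), and they are given as a description, without a test. Mpeg1, whose product is a pore-forming protein of phagocytes, was lowest in wt replicate 3 in both regions, at 13.5 and 17.97 CPM, and highest in wt replicate 1, at 43.5 and 55.8 CPM. Centring removed the difference between the genotype means. The 2 libraries of a mouse also share its litter and handling, which cannot be told apart here.

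Genes within 500 kb of Trem2 on chromosome 17 were looked up after seeing its values. Of 30 annotated genes, 6 were tested in HIP and 4 in EC, and none was called. Treml2 (GRCm38 chromosome 17, 48299498 to 48312533), another receptor of the TREM family, had a log2 fold change of -1.35 in HIP (SE 0.45, unadjusted p = 0.00982, edgeR adjusted p = 0.251) and -0.80 in EC (SE 0.37, edgeR adjusted p = 0.804). Foxp4, Nfya and Oard1, tested in both regions, ranged from -0.18 to 0.06.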
